A study of Mus musculus with 6 samples.

Results

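The 40 genes described here encode lysosomal enzymes, lysosomal membrane proteins, subunits of the proton pump that acidifies the lysosome, and the lysosomal transcription factors Tfeb and Tfe3. They were chosen by name: a gene was a member when its deposited symbol equalled one of a listed set of lysosome genes. Each of the 40 symbols was found, out of 54532 genes in the deposited table, and all 40 were among the 14814 genes that passed the filter on low counts. The study asked what OCT4, a pluripotency transcription factor, does in endothelial cells. Polyadenylated RNA was sequenced from 3 libraries of female and 3 libraries of male cultured mouse aortic endothelial cells (MAEC), all with the genotype label Oct4 KO and all untreated. Both sexes therefore carry the knockout, which the series describes as specific to endothelial cells, and both were grown in the same serum-rich medium with heparin and endothelial growth factors. Wild-type cells were not analysed here, so each comparison below is female over male within the knockout. Nothing in the sources used here gives the driver of the deletion, the age of the mice, or whether libraries of a sex came from separate animals or cultures. The p-values thus reflect the spread among these libraries, and that spread may be technical.

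Lysosomes are acidic organelles that break down material delivered by endocytosis and autophagy. Their soluble hydrolases work only at low pH, which is kept by the vacuolar proton ATPase: its membrane-embedded V0 sector conducts protons and its cytosolic V1 sector hydrolyses ATP. TFEB, TFE3 and their relatives MITF and TFEC bind a short promoter motif, the CLEAR element, whose core letters are CACGTG, and many lysosomal genes carry it. In endothelium lysosomes take part in the breakdown of lipoproteins and in the release of cholesterol from them.

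Before the levels, the sequences in which that core occurs are shown, since they are a feature of some of the members and were not used to choose them. A promoter window of 300 bases (250 upstream of an annotated start and the rest downstream) was found in RefSeq, assembly GRCm38.p6, for 36 of the 40 genes, 44 windows in all. The letters CACGTG, which read the same on both strands, were present for 12 of the 36 genes, or 33.3%, against 8.1% of the 27025 genes with a window. The longer letters CACGTGAC, searched with the opposite-strand form GTCACGTG, contain that core and were present for 10 genes, or 27.8%, against 2.5% of all genes. The full palindrome, the core preceded by GT and followed by AC, was present for 1 gene, Cln3, or 2.8%, against 0.4%. In each search a gene was counted when any of its windows matched. Cln3 and Lgmn each also had a window without CACGTG. The 250 upstream bases of Lamp1, Gla and Naglu are printed 5′ to 3′ on the gene's strand. Lamp1 has the most cores of all members, Gla carries 2, and Naglu had the largest fold change of the 12, with and without the corrections described below. Capitals mark CACGTG together with any adjoining letters of that palindrome.
Lamp1 (chr8:13158911-13159160, plus strand): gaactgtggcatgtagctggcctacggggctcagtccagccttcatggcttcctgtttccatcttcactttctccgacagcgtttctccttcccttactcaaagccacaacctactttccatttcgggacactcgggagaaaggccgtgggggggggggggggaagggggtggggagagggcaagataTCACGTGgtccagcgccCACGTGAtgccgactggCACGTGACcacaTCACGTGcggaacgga
Gla (chrX:134601006-134601255, minus strand): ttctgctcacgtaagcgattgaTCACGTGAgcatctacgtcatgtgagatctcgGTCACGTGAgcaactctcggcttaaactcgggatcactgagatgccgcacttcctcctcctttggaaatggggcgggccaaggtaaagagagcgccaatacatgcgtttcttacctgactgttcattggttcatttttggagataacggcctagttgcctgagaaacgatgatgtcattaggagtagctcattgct
Naglu (chr11:101069844-101070093, plus strand): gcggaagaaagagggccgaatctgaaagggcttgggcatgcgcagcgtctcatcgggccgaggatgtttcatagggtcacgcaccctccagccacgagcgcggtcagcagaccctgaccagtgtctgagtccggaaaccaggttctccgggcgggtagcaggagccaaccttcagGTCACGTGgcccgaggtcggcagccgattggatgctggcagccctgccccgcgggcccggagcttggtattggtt

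In Lamp1 the 4 cores began at positions -61, -45, -28 and -15 relative to the start, in Gla at -227 and -194, and in Naglu at -73. For the other 9 genes the best match in the window is shown as 26 bases around the core, with the same use of capitals and the same assembly.
Cln3 (chr7:126583342-126583367, minus strand): cgggtactGTCACGTGACccccaacc
Mcoln1 (chr8:3500464-3500489, plus strand): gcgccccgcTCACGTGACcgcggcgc
Glb1 (chr9:114401020-114401045, plus strand): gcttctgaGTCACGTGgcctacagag
Gaa (chr11:119267813-119267838, plus strand): tctgtgcgaTCACGTGtttgactctg
Sgsh (chr11:119355524-119355549, minus strand): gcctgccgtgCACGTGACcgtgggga
Lgmn (chr12:102439126-102439151, minus strand): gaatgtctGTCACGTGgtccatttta
Atp6v0b (chr4:117887350-117887375, minus strand): gcgcggggGTCACGTGgggtcggcgc
Atp6v0d1 (chr8:105566052-105566077, minus strand): ctactgcgGTCACGTGAgacgcggtg
Atp6v1a (chr16:44139375-44139400, minus strand): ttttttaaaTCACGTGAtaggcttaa

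Female libraries held 20404758 to 21483163 counts and male ones 19299742 to 23064738, and levels below are CPM, the read count scaled by the library size times its TMM factor. A gene at 0 counts may still reach 3 counts, which is 0.123 to 0.154 CPM; this limit covers counting error only, as reads carried no molecular identifiers. Pou5f1, the gene of OCT4, had 0 counts in all 6 libraries, which without wild-type libraries cannot show the deletion. Xist had 21282 to 31900 counts in the female libraries and 0 to 8 in the male ones, while the Y-linked Ddx3y, Eif2s3y, Kdm5d and Uty had 0 counts in each female library and 190 to 1318 in each male library. Most defining markers of the endothelial label were nearly absent: of 15, 11 were under 1 CPM in every library, Emcn, Cldn5, Robo4 and Sox17 were at 0 in all of them, and Pecam1 averaged 0.722 ± 0.292 CPM in female and 1.57 ± 0.351 CPM in male libraries (SD, n = 3 each). The 15 together made 147 to 174.1 CPM in female and 258.2 to 324.5 CPM in male libraries, nearly all of it from Eng, with 92.1 ± 8.92 CPM in female and 252.9 ± 31.9 CPM in male cells, and Flt1, with 57.61 ± 8.12 CPM in female and 27.61 ± 3.56 CPM in male cells. Eng was called lower in female cells (log2 -1.46 ± 0.10, SE; adjusted p = 1.5e-09) and Flt1 higher (1.06 ± 0.12; adjusted p = 7.68e-07). Of 12 fibroblast markers, 11 were at 10 CPM or more in every library, and their sum was 33980 to 36430 CPM in female and 21400 to 23280 CPM in male libraries. The largest part came from Fn1, and the list was split: 8 were called higher in female cells, among them Dcn (log2 3.85 ± 0.10, SE; adjusted p = 1.05e-14), and 3 lower, Fbln1 (-3.07 ± 0.10; adjusted p = 8.45e-14), Pdgfrb (-0.56 ± 0.08; adjusted p = 8.51e-06) and Col1a2 (-0.45 ± 0.07; adjusted p = 5.62e-05). Of 9 smooth muscle markers, 5 were under 1 CPM in every library, Myocd was at 0 in all of them, and the sum was 62.38 to 67.28 CPM in female and 159.4 to 173.9 CPM in male libraries, mostly from Smtn. Of 14 macrophage and leukocyte markers, whose cells are rich in lysosomes, 11 were under 1 CPM in every library and Ptprc, Adgre1, C1qa, C1qb, C1qc, Fcgr1 and Tyrobp were at 0 in all of them; their sum was 15.05 to 18.28 CPM in female and 53.16 to 65.32 CPM in male libraries. That sum was mostly Lyz2, with 9.88 ± 1.13 CPM in female and 54.49 ± 6.03 CPM in male cells (SD, n = 3 each), while Cd68, itself a lysosomal membrane protein, was higher in female cells, with 5.77 ± 1.07 CPM in female and 2.41 ± 0.985 CPM in male cells (log2 1.25 ± 0.31, SE; adjusted p = 0.00197). These sums differ between the sexes beside every result below, and their part in the results was not tested.

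Lysosomal genes were mostly higher in female than in male Oct4 KO cells. Of the 40 genes, 24 were called higher in female cells and 5 lower at an adjusted p under 0.05 in edgeR's quasi-likelihood test, with Benjamini-Hochberg adjustment over the 14814 genes tested, and 11 were not called. The sexes differed widely: of all genes tested, 60.7% were called, 30.9% higher and 29.8% lower. Among the 10807 genes averaging 5 CPM or more, a level that all 40 members reach, 67.6% were called, 33.6% higher and 34% lower. The total of 29 called members lay near this background, while 24 of the 29 were called in the same direction. The median log2 fold change was 0.34 over the 40 members and -0.01 over all genes tested. For 33 members the 3 female and 3 male values did not overlap, which held for 67.1% of all genes tested. A called difference of at least 2-fold was found for 7 members, all higher in female cells (Npc1, Ids, Naglu, Asah1, Npc2, Gla and Lgmn), and for 23.6% of all genes tested, 13.7% in the higher direction. In bulk RNA, more cells of a kind and more RNA per cell cannot be told apart.

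**Figure D1:**
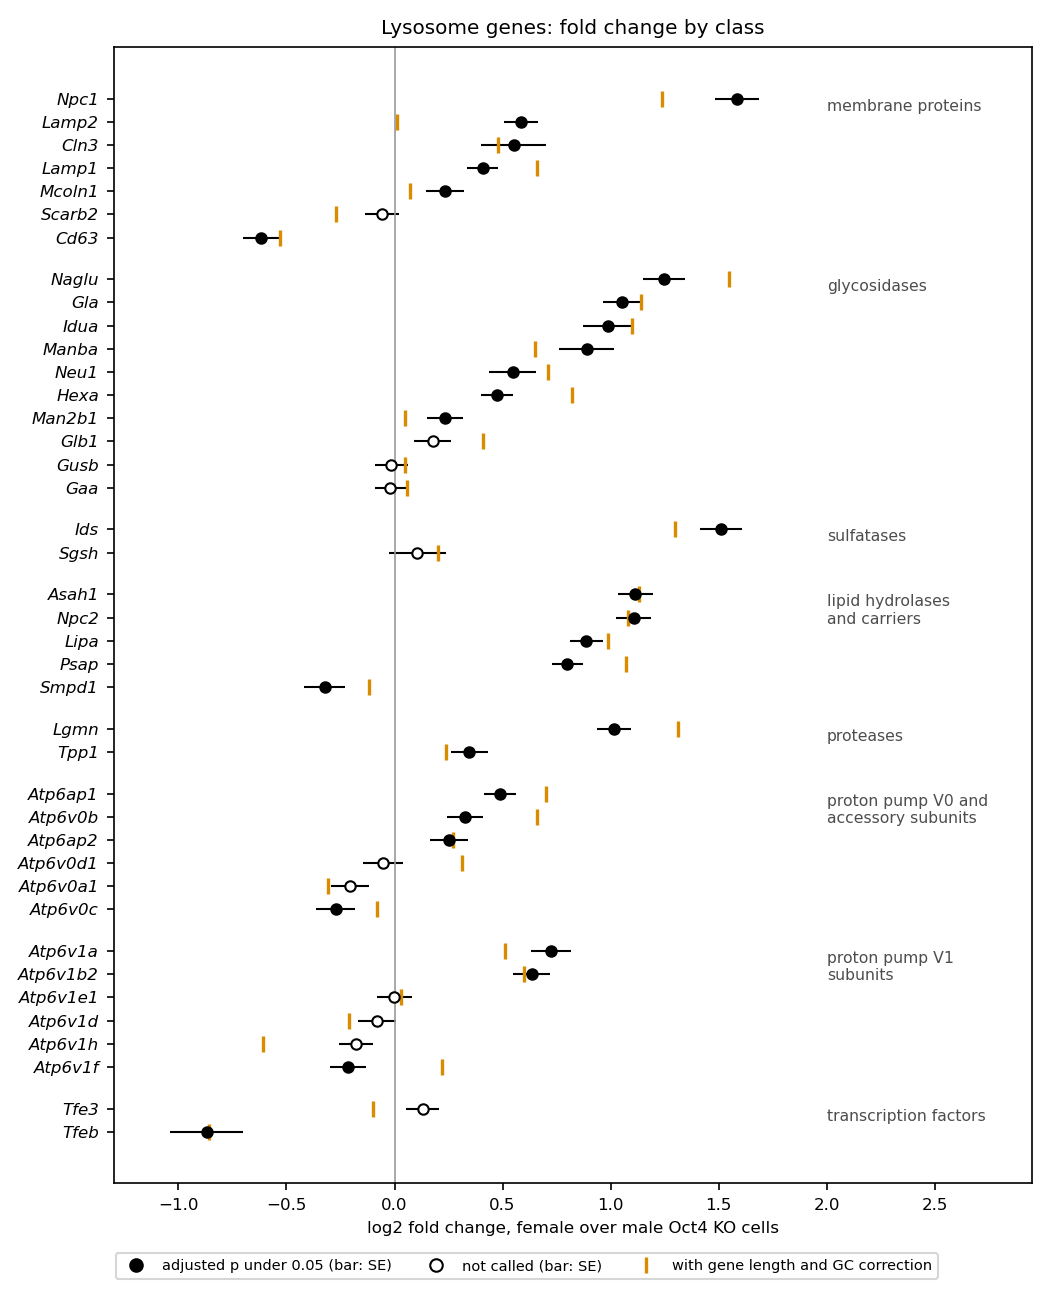
Log2 fold change (x axis, female over male) of each of the 40 lysosome genes, grouped by role down the page, with the SE as a bar, filled where the adjusted p was under 0.05; the orange tick is the estimate after correction for gene length and GC content. The 24 filled points right of 0 and the 5 left of it are the called genes, and Lamp2 is the member whose tick moves from 0.58 to 0.01.

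The 40 genes together made 13210, 13900 and 13790 CPM in the female libraries, against 9649, 9906 and 9311 CPM in the male ones, a ratio of means of 1.42. Every female library was above every male one. With the TMM scaling, CPM summed over all genes tested also differed, averaging 1040000 in female and 959200 in male libraries. Ratios of summed CPM here and below therefore stand beside a higher summed total in female libraries. The median log2 fold change over all genes tested was still -0.01. Psap, which encodes the precursor of the saposins, small proteins that present sphingolipids to their hydrolases, supplied the largest part; without it the sums averaged 9013 ± 274 CPM in female and 6968 ± 188 CPM in male cells (SD, n = 3 each), a ratio of 1.29. Per kilobase of the principal transcript, Psap had the highest level of the 40 in both sexes, 1740 ± 47.1 CPM per kb in female and 999 ± 41.6 CPM per kb in male cells (SD, n = 3 each). Cd63 was next on that scale with 634 ± 46.4 CPM per kb in female and 972 ± 77.8 CPM per kb in male cells, followed by Lamp1 with 454 ± 19.4 CPM per kb in female and 342 ± 9.02 CPM per kb in male cells. At the low end in female cells stood Tfeb with 3.15 ± 0.388 CPM per kb, against 5.75 ± 0.747 in male cells, and at the low end in male cells Cln3 with 3.13 ± 0.453, against 4.59 ± 0.105 CPM per kb in female cells. Replicates were close: the coefficient of variation within a sex had a median of 5.6% over the 40 genes in female and 7% in male libraries.

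Of the 26 members outside the pump and the transcription factors, 19 were called higher in female cells, 2 lower and 5 not, with a median log2 fold change of 0.55. The 12 pump genes had 5 called higher, 2 lower and 5 not, and a median of -0.03; the difference between these medians was not tested. With the gene length correction the pump genes had 6 higher and 2 lower, with a median of 0.18, and the other 26 had 18 higher and 2 lower, with a median of 0.61. With length and GC corrected the pump genes had 7 higher and 3 lower, with a median of 0.24. The other 26 then had 17 higher and 2 lower, with a median of 0.66. Total counts gave the pump genes 4 higher and 4 lower, with a median of -0.14, and upper-quartile scaling also 4 and 4; 1 lower was left without female library 1, male library 1 or male library 2.

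Among the 7 membrane proteins, 5 were called higher in female cells, 1 lower and 1 not, with a median log2 fold change of 0.41. With the gene length correction 4 were higher and 2 lower, with a median of 0.25. With length and GC corrected 3 were higher and 2 lower, with a median of 0.07. Npc1 (mm10 chromosome 18, 12189693 to 12236400) encodes the membrane protein that exports cholesterol from the lysosome. It had 159.8, 187.9 and 144.2 CPM in female libraries, against 54.14, 51.12 and 58.54 CPM in male ones. Npc1 rose 3.00-fold in female cells, a log2 fold change of 1.59 ± 0.10 (SE; adjusted p = 5.53e-10), and the lowest female library was far above the highest male one. This was the largest of the 40 without correction, but it was 1.21 with the length correction, below Ids (1.45), Naglu (1.44), Lgmn (1.24) and Asah1 (1.23). With its exons it shares 511 bases on the opposite strand with Rmc1, which had 4152 counts over the 6 libraries against 13416 for Npc1. If strand was not used, this overlap could affect the counts of both genes. Rmc1 itself was higher in female cells by 0.30 ± 0.11 (log2, SE; adjusted p = 0.0211).

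Lamp2 (chromosome X, 38401357 to 38456454) encodes a glycoprotein of the lysosomal membrane needed for autophagic turnover. Its values were 828.4, 887.9 and 796.5 CPM in female libraries, against 597.9, 540.8 and 536.9 CPM in male ones. The 3 female values lay above the 3 male ones, and the log2 fold change was 0.58 ± 0.08 (SE; adjusted p = 5.61e-06). This call was kept under 16 of the 17 alternatives, among them the gene length correction, where the log2 fold change was 0.25 (adjusted p = 0.00436). It was lost with gene length and GC content both corrected, at 0.01 (adjusted p = 0.923). Over the 17 alternatives tried, the adjusted p of Lamp2 was 7.01e-14 to 0.923. Lamp1 (chromosome 8, 13159161 to 13175338), its close relative and one of the most abundant proteins of that membrane, carries the 4 cores printed above. It had 971.1, 1057 and 1005 CPM in female libraries, against 752.7, 785.1 and 748.3 CPM in male ones, with no overlap and a log2 fold change of 0.41 ± 0.07 (SE; adjusted p = 0.000122). With both corrections it was 0.66 (adjusted p = 2.86e-07; 5.99e-09 to 0.00185 over the alternatives), so the pair moved in opposite ways under them.

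Cd63 (chromosome 10, 128900989 to 128912822), a tetraspanin of late endosomes, lysosomes and exosomes, and in endothelium also of Weibel-Palade bodies, went against the others. It had 661.2, 687.4 and 760.5 CPM in female libraries, against 1119, 1136 and 978.7 CPM in male ones. All 3 female values were below all 3 male values, and the log2 fold change was -0.62 ± 0.08 (SE; adjusted p = 6.61e-06). A processed pseudogene, Cd63-ps, was lower too, with 66.1 ± 2.29 CPM in female and 96.62 ± 9.22 CPM in male cells (SD, n = 3 each). Cd63 and Cd63-ps added together gave 769.1 ± 53.8 CPM in female and 1174 ± 94.9 CPM in male cells, the same direction. Cln3, a membrane protein whose loss causes juvenile Batten disease, averaged 14.7 ± 0.34 CPM in female and 10.03 ± 1.45 CPM in male cells (SD, n = 3 each), a log2 fold change of 0.55 ± 0.15 (SE; adjusted p = 0.00444). It shares 442 exon bases with Apobr on the opposite strand, which had 781 counts against 1535 for Cln3.

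Mcoln1, the calcium channel of the lysosomal membrane (TRPML1), was called at a small difference, 73.2 ± 1.99 CPM in female and 62.24 ± 5.18 CPM in male cells (SD, n = 3 each), a log2 fold change of 0.23 ± 0.09 (SE; adjusted p = 0.0278). This call was lost with total counts (adjusted p = 0.24), with upper-quartile scaling (0.13), with the length correction, where the sign turned to -0.02, and without female library 1 (0.0559), female library 2 (0.0596), male library 1 (0.0567) or male library 3 (0.162), with a range of 0.0211 to 0.91 over the alternatives. Scarb2, the receptor that carries glucocerebrosidase to the lysosome, was not called: it averaged 338 ± 19.2 CPM in female and 352.1 ± 23.2 CPM in male cells (SD, n = 3 each), the values overlapped, and the log2 fold change was -0.06 ± 0.08 (SE; adjusted p = 0.538). With the length correction it was called lower in female cells, at -0.22 (adjusted p = 0.0101; 0.00167 to 0.901 over the alternatives).

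**Figure D2:**
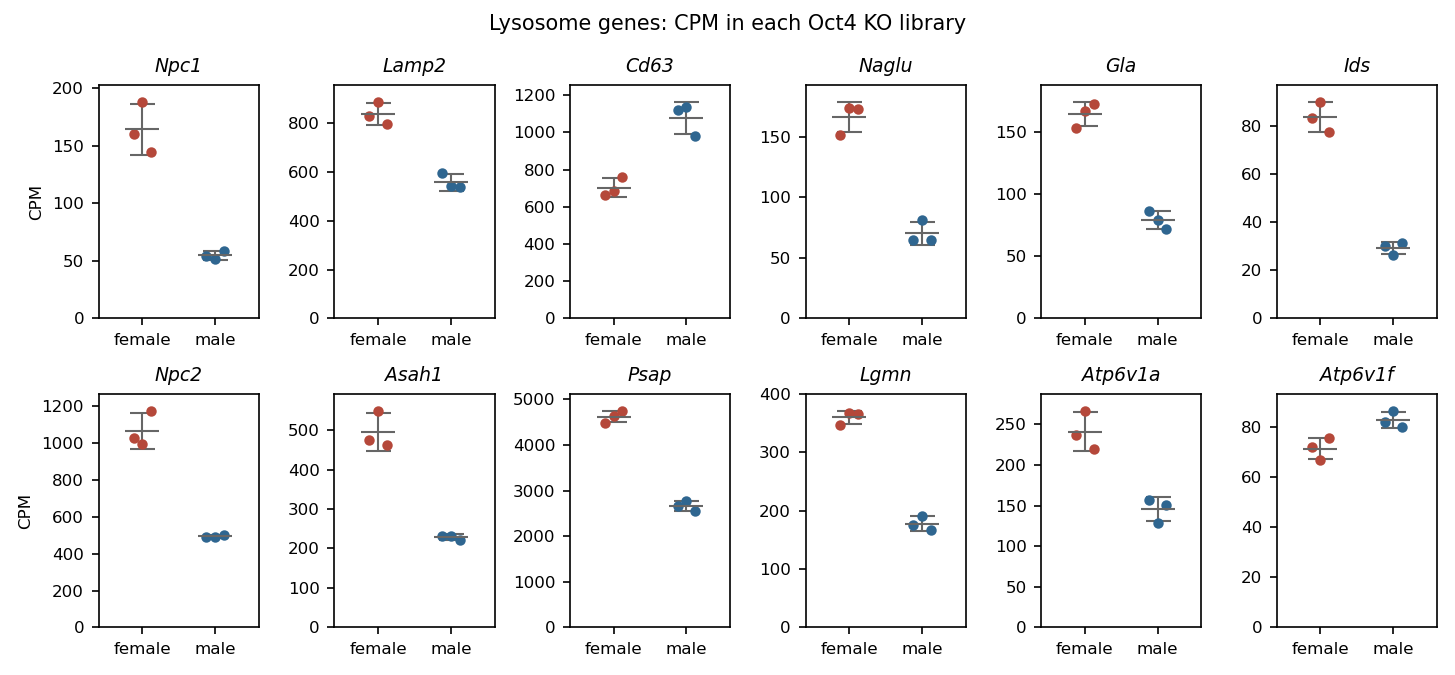
CPM (y axis, from 0) of 12 lysosome genes in each of the 3 female and 3 male Oct4 KO libraries; points are libraries, the long bar is the mean and the whiskers the SD. In all 12 panels the sexes do not overlap, with Cd63 and Atp6v1f lower in female cells and the other 10 higher.

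Of the 10 glycosidases, 7 were called higher in female cells, none lower and 3 not, with a median log2 fold change of 0.51. Naglu (chromosome 11, 101070012 to 101077672), which removes N-acetylglucosamine from heparan sulfate, had 151.9, 174.2 and 173 CPM in female libraries, against 64.75, 80.99 and 64.7 CPM in male ones. It rose 2.37-fold, a log2 fold change of 1.25 ± 0.10 (SE; adjusted p = 9.79e-09), with a wide gap between the sexes. Gla (chromosome X, 134588149 to 134601125), the alpha-galactosidase deficient in Fabry disease, in which globotriaosylceramide builds up in endothelial cells, had 153.1, 166.5 and 172.4 CPM in female libraries, against 86.64, 78.62 and 71.8 CPM in male ones. Its log2 fold change was 1.05 ± 0.09 (SE; adjusted p = 2.14e-08), and the sexes stood apart. Idua (chromosome 5, 108660331 to 108684557), the iduronidase of heparan and dermatan sulfate breakdown, had 31.55, 37.41 and 32.6 CPM in female libraries, against 17.81, 17.78 and 15.57 CPM in male ones. The log2 fold change was 0.99 ± 0.12 (SE; adjusted p = 1.69e-06), again without overlap. Idua shares 124 exon bases with Dgkq on the opposite strand, itself higher by 1.45 ± 0.15 (log2, SE) with 1946 counts against 3137 for Idua. The effect of this overlap on the counts was not tested.

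The other 4 called glycosidases differed less. Manba, the beta-mannosidase, was higher in female cells by 0.89 ± 0.13 (log2, SE; adjusted p = 1.11e-05), with 26.98 ± 1.23 CPM in female and 14.54 ± 1.57 CPM in male cells (SD, n = 3 each). Neu1, the lysosomal sialidase, was higher by 0.55 ± 0.11 (adjusted p = 0.000344), at 37.18 ± 1.15 CPM in female and 25.45 ± 2.89 CPM in male cells. Hexa, the alpha subunit of the hexosaminidase that degrades GM2 ganglioside, was higher by 0.47 ± 0.07 (adjusted p = 3.24e-05), at 371 ± 19.2 CPM in female and 267 ± 4.22 CPM in male cells. Man2b1, the alpha-mannosidase, was called at 0.23 ± 0.08 (adjusted p = 0.0242), but it lost the call with total counts (adjusted p = 0.236) and upper-quartile scaling (0.123), turned to -0.04 with the length correction, and lost it without female library 1 (0.0542), female library 2 (0.06), male library 1 (0.159) or male library 3 (0.0586). The adjusted p of Man2b1 was 0.0112 to 0.736 over the alternatives.

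Not called were Gusb, Gaa and Glb1. Gusb, the beta-glucuronidase often used as a reference transcript, averaged 109 ± 2.51 CPM in female and 110.1 ± 3.37 CPM in male cells, and Gaa, the acid alpha-glucosidase of glycogen breakdown, 411.4 ± 7.25 CPM in female and 417 ± 19.1 CPM in male cells (SD, n = 3 each). The values of both overlapped between the sexes, with log2 fold changes of -0.01 ± 0.08 for Gusb (SE; adjusted p = 0.886) and -0.02 ± 0.07 for Gaa (adjusted p = 0.837). Glb1, the beta-galactosidase whose activity marks senescent cells, averaged 106.9 ± 4.83 CPM in female and 94.53 ± 7.82 CPM in male cells, a log2 fold change of 0.18 ± 0.09 (SE; adjusted p = 0.0814), and was called with the length correction (0.34, adjusted p = 0.00121) and without female library 2 (0.22, adjusted p = 0.0489), with a range of 9.39e-05 to 0.56 over the alternatives. It shares 165 exon bases with Tmppe on the same strand, which had 706 counts against 12591 for Glb1.

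The 2 sulfatases differed from each other. Ids (chromosome X, 70343069 to 70365084), the iduronate sulfatase that acts on heparan and dermatan sulfate ahead of Idua, had 83.56, 90.26 and 77.71 CPM in female libraries, against 30.36, 26.39 and 31.42 CPM in male ones. It rose 2.85-fold, a log2 fold change of 1.51 ± 0.10 (SE; adjusted p = 7.46e-10), with no overlap. Sgsh (chromosome 11, 119343425 to 119355536), the sulfamidase of the same heparan sulfate pathway, had 24.65, 21.34 and 18.83 CPM in female libraries, against 19.42, 19.19 and 21.61 CPM in male ones. The Sgsh values overlapped, and the log2 fold change was 0.11 ± 0.13 (SE; adjusted p = 0.504). Of the 5 members that act on heparan sulfate, Ids, Idua and Naglu rose in female cells, while Sgsh and Gusb did not pass the test.

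Of the 5 lipid hydrolases and lipid carriers, 4 were called higher in female cells and 1 lower, the median log2 fold change was 0.89, and their summed level was 6238, 6426 and 6616 CPM in female libraries, against 3544, 3674 and 3436 CPM in male ones. Asah1 (chromosome 8, 41340197 to 41374773), the acid ceramidase, had 474.7, 548.9 and 461.8 CPM in female libraries, against 232.9, 232.5 and 220.9 CPM in male ones. It was 2.16-fold higher, a log2 fold change of 1.11 ± 0.08 (SE; adjusted p = 4.28e-09). Npc2 (chromosome 12, 84754562 to 84773152), the soluble protein that hands cholesterol to NPC1, had 1027, 993.9 and 1176 CPM in female libraries, against 489.9, 490.5 and 504.4 CPM in male ones. Its log2 fold change was 1.11 ± 0.08 (SE; adjusted p = 3.4e-09), so both partners of the cholesterol export pair were called higher in female cells. Lipa (chromosome 19, 34492318 to 34527474), the acid lipase that frees cholesterol and fatty acids from lipoprotein esters, had 187.5, 191.6 and 180 CPM in female libraries, against 100.9, 105.2 and 96.25 CPM in male ones. The log2 fold change of Lipa was 0.89 ± 0.08 (SE; adjusted p = 3.57e-08), and none of these 3 genes had overlapping values.

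Psap (chromosome 10, 60277627 to 60302597) had 4490, 4635 and 4739 CPM in female libraries, against 2656, 2764 and 2543 CPM in male ones. Its 3 female values were far above the male ones, with a log2 fold change of 0.80 ± 0.07 (SE; adjusted p = 6.21e-08). Smpd1 (chromosome 7, 105554360 to 105558389), the acid sphingomyelinase that makes ceramide from sphingomyelin, was the member of this class called lower. It had 58.47, 56.65 and 58.32 CPM in female libraries, against 63.71, 81.69 and 71.68 CPM in male ones, without overlap and with a log2 fold change of -0.32 ± 0.10 (SE; adjusted p = 0.0073). The Smpd1 call was lost with the length correction (-0.21, adjusted p = 0.055) and with length and GC corrected (-0.12, adjusted p = 0.219), and its adjusted p was 0.000735 to 0.219 over the alternatives. Acid sphingomyelinase makes the ceramide that acid ceramidase breaks down, and their transcripts had fold changes of opposite sign.

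Both proteases were called higher. Lgmn (chromosome 12, 102394084 to 102439813), the asparaginyl endopeptidase that also processes cathepsins, had 346.8, 366.3 and 365.8 CPM in female libraries, against 174.8, 191.5 and 167.2 CPM in male ones. It rose 2.02-fold, a log2 fold change of 1.02 ± 0.08 (SE; adjusted p = 7.45e-09). Tpp1 (chromosome 7, 105744811 to 105752235), the tripeptidyl peptidase deficient in a late infantile form of Batten disease, had 282.6, 315.6 and 273.4 CPM in female libraries, against 220.2, 252 and 213.8 CPM in male ones. The Tpp1 gap was narrower, with no overlap and a log2 fold change of 0.35 ± 0.09 (SE; adjusted p = 0.00216).

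The 12 proton pump genes made 1619, 1760 and 1659 CPM together in female libraries, against 1453, 1488 and 1428 CPM in male ones, a ratio of means of 1.15. The sum over all genes tested, given above, was also higher in female libraries. The median log2 fold change of the 12 pump genes was -0.03, and 0.24 with length and GC corrected. Per kilobase of principal transcript their levels spanned 18.1 to 140 CPM per kb in female and 19.2 to 126 CPM per kb in male cells. None of the 12 was called at a 2-fold difference or more.

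Of the 6 V0 and accessory genes, 3 were called higher, 1 lower and 2 not. Atp6ap1 (chromosome X, 74297097 to 74304721), an accessory protein needed for assembly of the pump, had 298.4, 322.5 and 298.5 CPM in female libraries, against 217.5, 224.1 and 215 CPM in male ones. It was higher by 0.49 ± 0.07 (log2, SE; adjusted p = 2.45e-05). Atp6v0b (chromosome 4, 117884326 to 117887333), a subunit of the rotating ring that carries protons, had 91.71, 96.71 and 106.6 CPM in female libraries, against 78.02, 77.56 and 79.73 CPM in male ones, a log2 fold change of 0.33 ± 0.08 (SE; adjusted p = 0.00258). Neither gene had overlapping values. Atp6v0c (chromosome 17, 24163866 to 24169702), the main subunit of the same ring, went the other way with 67.15, 60.23 and 69.91 CPM in female libraries, against 72.57, 82.05 and 83.47 CPM in male ones. The highest female value of Atp6v0c was just under the lowest male one, and the log2 fold change was -0.27 ± 0.09 (SE; adjusted p = 0.0152). This call was lost with the length correction (-0.16, adjusted p = 0.101), without female library 2 (adjusted p = 0.0629) and without male library 3 (0.061). The adjusted p ranged from 0.00168 to 0.391 over the alternatives.

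Atp6ap2, the accessory protein also known as the prorenin receptor, was called higher by 0.25 ± 0.09 (log2, SE; adjusted p = 0.0195), at 115.4 ± 8.24 CPM in female and 96.82 ± 8.13 CPM in male cells (SD, n = 3 each). It lost the call with total counts (adjusted p = 0.205), upper-quartile scaling (0.0931), and without female library 3 (0.058), male library 1 (0.078) or male library 2 (0.0951), with a range of 0.000263 to 0.205 over the alternatives. Atp6v0a1, an isoform of the large proton-channel subunit, was not called at -0.21 ± 0.09 (log2, SE; adjusted p = 0.0547), with 146.2 ± 9.41 CPM in female and 168.6 ± 17.8 CPM in male cells. It was called lower in 9 of the 17 alternatives, among them without female library 2 (-0.24, adjusted p = 0.0388), without male library 3 (-0.26, adjusted p = 0.0315) and with the length correction (-0.40, adjusted p = 0.000696), and the highest adjusted p was 0.188. Atp6v0d1, which couples the V0 ring to the V1 stalk, averaged 103 ± 0.314 CPM in female and 107 ± 13.7 CPM in male cells. Its log2 fold change was -0.05 ± 0.09 (SE; adjusted p = 0.639), with overlapping values, and turned to 0.23 (adjusted p = 0.0238; 0.00324 to 0.915 over the alternatives) with the length correction.

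Of the 6 V1 genes, 2 were called higher, 1 lower and 3 not. Those called higher were subunits A and B of the ATP-hydrolysing head. Atp6v1a (chromosome 16, 44085402 to 44139705) had 236.4, 266.5 and 219.4 CPM in female libraries, against 156.6, 128.9 and 151 CPM in male ones. Its log2 fold change was 0.73 ± 0.09 (SE; adjusted p = 3.76e-06). Atp6v1b2 (chromosome 8, 69088646 to 69113711) had 181.4, 222.5 and 190.7 CPM in female libraries, against 128.9, 122.7 and 131.4 CPM in male ones, a log2 fold change of 0.63 ± 0.09 (SE; adjusted p = 7.51e-06). Every female value of these head subunits was above every male one. The stalk subunit Atp6v1f was called in the opposite direction. Atp6v1f (chromosome 6, 29467718 to 29470512) had 71.74, 66.78 and 75.28 CPM in female libraries, against 81.95, 86.28 and 79.77 CPM in male ones. Its log2 fold change was -0.21 ± 0.08 (SE; adjusted p = 0.0346), and the sign turned under the length correction (0.13, adjusted p = 0.121) and with length and GC corrected (0.22, adjusted p = 0.0104). Without female library 1, female library 2, male library 1 or male library 2 the adjusted p of Atp6v1f was 0.0681 to 0.114, with no filter on low counts 0.0621, and over all alternatives 0.00267 to 0.181.

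Among the uncalled V1 genes, the stalk subunit Atp6v1e1 averaged 165.2 ± 10.5 CPM in female and 165.3 ± 8.12 CPM in male cells, the rotor subunit Atp6v1d 66.42 ± 3.08 CPM in female and 70.3 ± 5 CPM in male cells, and the regulatory subunit Atp6v1h 102.4 ± 4.38 CPM in female and 115.8 ± 5.66 CPM in male cells (SD, n = 3 each). The log2 fold change was 0.00 ± 0.08 for Atp6v1e1 (SE; adjusted p = 0.993), -0.08 ± 0.09 for Atp6v1d (adjusted p = 0.434) and -0.18 ± 0.08 for Atp6v1h (adjusted p = 0.0625). Values of Atp6v1h did not overlap, and it was called lower with the length correction (-0.52, adjusted p = 2.32e-05) and without female library 2 (-0.21, adjusted p = 0.044), with a range of 6.43e-06 to 0.214 over the alternatives. The deposited length used for that correction was 9746 bases, against 2049 for the principal transcript of Atp6v1h.

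The 2 transcription factors differed. Tfeb (chromosome 17, 47737030 to 47792419) had 7.043, 6.447 and 8.201 CPM in female libraries, against 11.37, 14.76 and 13.51 CPM in male ones. Tfeb fell in female cells, with no overlap and a log2 fold change of -0.87 ± 0.17 (SE; adjusted p = 0.000261). Tfe3 (chromosome X, 7762560 to 7775202) had 88.09, 85.66 and 84.39 CPM in female libraries, against 77.87, 78.77 and 79.08 CPM in male ones. These values did not overlap, but the log2 fold change of 0.13 ± 0.08 (SE) did not pass the test (adjusted p = 0.154), and it turned to -0.19 (adjusted p = 0.0357; 0.0357 to 0.89 over the alternatives) with the length correction. Transcript levels do not show the activity of these factors, which is set largely by phosphorylation and by their place in the cell.

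**Figure D3:**
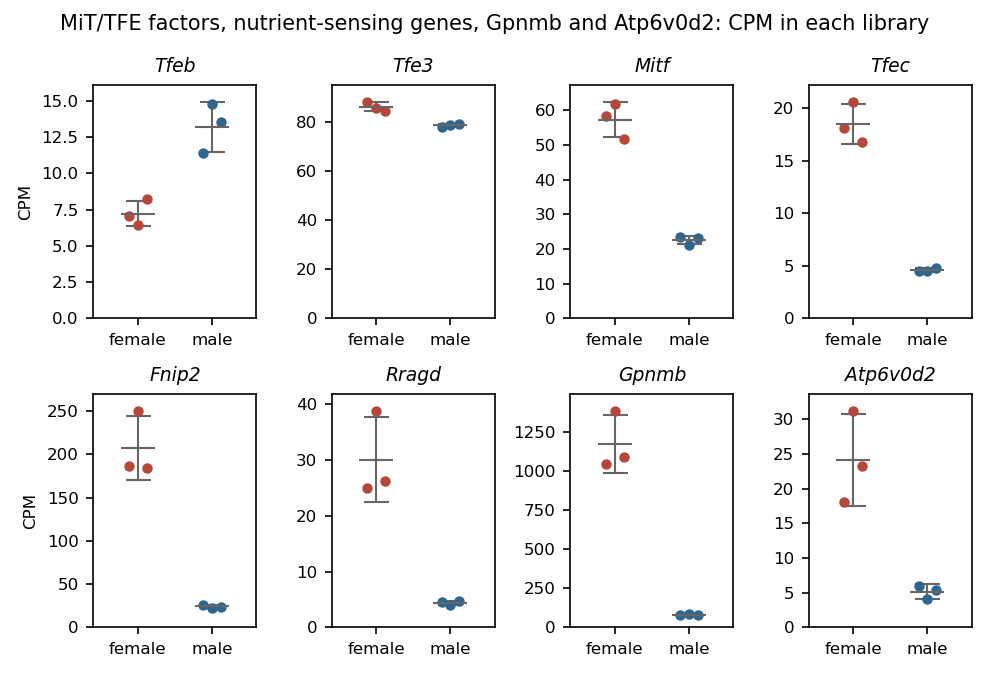
CPM (y axis, from 0) of 8 genes in each female and male Oct4 KO library; points are libraries, the long bar is the mean and the whiskers the SD. Tfeb is lower in female cells (6.447 to 8.201 against 11.37 to 14.76 CPM), while Mitf, Tfec, Fnip2, Rragd, Gpnmb and Atp6v0d2 are higher.

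The members were also set beside other genes of the pathway. MITF and TFEC bind the same motif as TFEB. Mitf had 58.47, 61.81 and 51.74 CPM in female libraries, against 23.45, 21.25 and 23.17 CPM in male ones, a log2 fold change of 1.34 ± 0.10 (SE; adjusted p = 6.48e-09). Tfec, named after its values were seen, averaged 18.51 ± 1.94 CPM in female and 4.627 ± 0.192 CPM in male cells (SD, n = 3 each), a log2 fold change of 2.00 ± 0.16 (SE; adjusted p = 1.08e-08). Both lay on the opposite side of 0 from Tfeb. Of 20 tested genes of sorting to the lysosome and of nutrient sensing there, which include Mitf and Tfec, 10 were called higher, 2 lower and 8 not, the median log2 fold change being 0.24. The number called lower was 5 with total counts or upper-quartile scaling, 4 with limma-voom, with no filter or without female library 3, and 1 with length and GC corrected. Fnip2, a folliculin partner that controls the Rag GTPases, averaged 207.4 ± 37.4 CPM in female and 24.31 ± 1.87 CPM in male cells, an 8.53-fold rise (log2 3.09 ± 0.12, SE; adjusted p = 7.66e-13). Rragd, the RagD GTPase through which mTORC1 recognises TFEB, averaged 30.05 ± 7.63 CPM in female and 4.449 ± 0.37 CPM in male cells (log2 2.75 ± 0.18, SE; adjusted p = 9.93e-10). Igf2r, the mannose 6-phosphate receptor that brings new hydrolases to the endosome, averaged 1020 ± 126 CPM in female and 273.7 ± 33.9 CPM in male cells (log2 1.90 ± 0.10, SE; adjusted p = 7.81e-11).

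Of 28 other lysosomal hydrolases and cofactors tested, 17 were called higher in female cells, 4 lower and 7 not, and the median log2 fold change was 0.38. The number called lower was 2 without female library 1 or male library 3. The serine carboxypeptidase Scpep1 had the smallest adjusted p, with 547.4 ± 13.2 CPM in female and 175 ± 11.6 CPM in male cells (log2 1.65 ± 0.08, SE; adjusted p = 1.26e-11). Grn, the progranulin gene, had 617.2 ± 42.3 CPM in female and 276.6 ± 34.5 CPM in male cells (log2 1.16 ± 0.09; adjusted p = 1.11e-08). The sulfatase Galns rose by 1.12 ± 0.10 (log2, SE; adjusted p = 4.63e-08). Of 18 other membrane proteins, 9 were called higher, 3 lower and 6 not, with a median of 0.25. Here the lipid transporter Abca2 rose by 1.36 ± 0.11, the calcium channel Tpcn2 by 1.13 ± 0.10 and the sialic acid exporter Slc17a5 by 0.87 ± 0.09, while Ostm1, the partner of the chloride transporter ClC-7, fell by 1.00 on the log2 scale, with 37.75 ± 1.4 CPM in female and 75.68 ± 7.72 CPM in male cells (adjusted p = 9.93e-08).

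Of 11 other tested pump genes, 4 were called higher, 3 lower and 4 not, with a median of 0.08, again close to 0 without corrections. The alternative subunit isoform Atp6v0d2 had 18.04, 31.21 and 23.29 CPM in female libraries, against 6.016, 4.029 and 5.463 CPM in male ones, a log2 fold change of 2.22 ± 0.20 (SE; adjusted p = 6.45e-08). The ubiquitous form Atp6v0d1, one of the 40, was not called. Atp6v1g1, a V1 stalk subunit, rose by 0.84 ± 0.09 (adjusted p = 6.21e-07), Atp6v0e2 by 2.38 ± 0.35 from a low level (3.915 ± 0.831 CPM in female and 0.7447 ± 0.0842 CPM in male cells; adjusted p = 1.73e-05), and Ccdc115, an assembly factor, fell by 1.00 (7.768 ± 1.83 CPM in female and 15.5 ± 1.8 CPM in male cells; adjusted p = 0.000122). The cathepsins, the proteases that Lgmn acts on, had 5 of 10 tested genes called higher and 2 lower (1 lower without female library 1, female library 2 or male library 3); Ctsl averaged 11950 ± 550 CPM in female and 1918 ± 66.6 CPM in male cells (log2 2.64 ± 0.08, SE; adjusted p = 2.59e-14).

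On the X chromosome lie Lamp2, Gla, Ids, Atp6ap1, Atp6ap2 and Tfe3. Of these 6 members, 5 were called higher in female cells and none lower, and their median log2 fold change was 0.54. Over all 472 X-linked genes tested, 65% were called, 41.1% higher and 23.9% lower, with a median of 0.19. The 34 autosomal members had 19 called higher, 5 lower and 10 not, with a median of 0.28. The part of the X chromosome in the fold changes of the members was not tested.

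By promoter, the 12 genes with CACGTG in a window had 8 called higher, none lower and 4 not, with a median log2 fold change of 0.37. The 24 genes with a window but without those letters had 13 higher, 5 lower and 6 not, with a median of 0.24. Among all genes averaging 5 CPM or more, 67.6% were called, 33.6% higher and 34% lower. The 4 genes with no window in the RefSeq table (Npc1, Asah1, Atp6v1b2 and Atp6v1h) had 3 higher and 1 not called. The printed Lamp1 window with 4 cores belongs to a log2 fold change of 0.41, and that of Naglu with 1 core to 1.25. Such matches describe the letters in these windows and were not tested against the fold changes.

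Fold changes moved with gene length over all genes, and this was measured beside the members. The 10807 genes averaging 5 CPM or more were cut into 5 equal groups by deposited gene length, and the median log2 fold change was -0.40 in the shortest group, then -0.19, 0, 0.16 and 0.39 in the longest. The members in the same groups (5, 13, 9, 8 and 5 genes) had medians of 0.33, 0.49, 0.11, 0.39 and 0.23, and Spearman's rho between length and log2 fold change was -0.01 over the 40 members and 0.38 over the 10807 genes, all from the same 6 libraries. After a correction for gene length, 24 members were called higher and 6 lower, with a median of 0.38. The correction used the deposited length, which for some members far exceeds the principal transcript. It was 9552 against 3604 bases for Lamp2, 7555 against 2065 for Mcoln1 and 9261 against 3277 for Tfe3, but 1996 for both in Hexa. How far the corrected values depend on this choice of length was not tested. Of the 24 calls in the higher direction, 20 were kept under each of the 17 alternatives tried, the exceptions being Lamp2, Mcoln1, Man2b1 and Atp6ap2. Of the 5 lower ones, Cd63 and Tfeb were kept, and Smpd1, Atp6v0c and Atp6v1f were not.

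**Figure D4:**
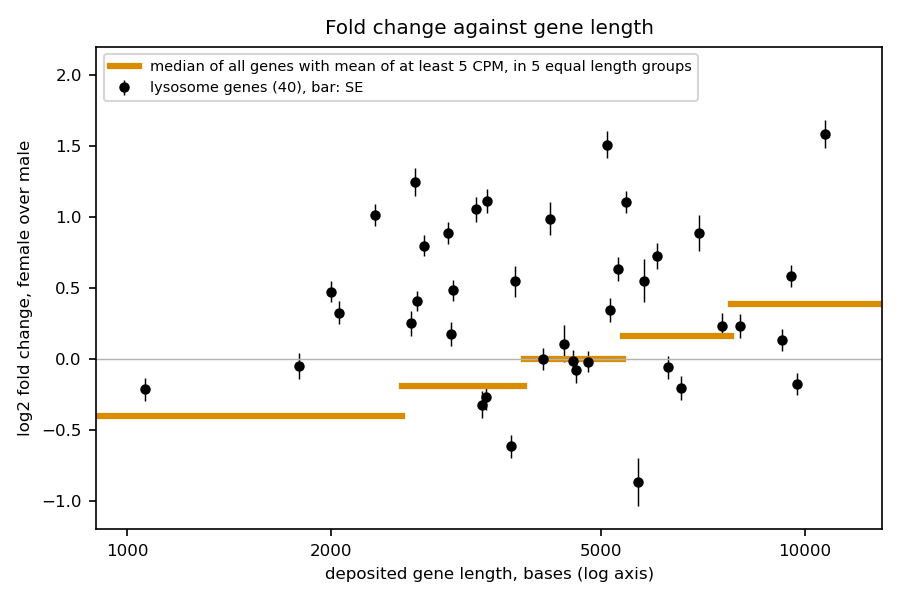
Log2 fold change (y axis, female over male) of the 40 lysosome genes against deposited gene length in bases (x axis, log scale), with the SE as a bar; orange lines are medians of all genes averaging 5 CPM or more in each of 5 equal groups by gene length. The orange medians climb from -0.40 to 0.39, while the members show no such climb (rho -0.01).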

How the data were processed

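The deposited table holds raw read counts per gene, not normalised, for 6 libraries, with gene length, coordinates and symbols; per the submitters' processing notes HISAT2 2.0.5, featureCounts 1.5 and the build mm10 were used. The strand setting, and how reads mapping to several places were treated, are not given in the sources used here. Overlapping genes, antisense genes and pseudogenes are therefore uncertain. The fit used R 4.3.3 and edgeR 4.0.16 (sex-wise filterByExpr, TMM, glmQLFit, glmQLFTest, sex as the only term), two-sided, with Benjamini-Hochberg adjustment over 14814 genes. Genes with an adjusted p under 0.05 were called. Each SE was taken as the estimate over the square root of F. CPM use the library size times its TMM factor. On simulated data the fit recovered 83.6% of 1.5-fold and 100% of 2-fold and 4-fold changes, with 5.03% of calls false. The simulation gave all genes the same spread, changed few genes and had no trend with gene length. Its shares therefore check the fit and need not hold for these data. Each library counted as 1 sample in the fit. Same-sex libraries differed beyond counting noise (chi-square 7.42 to 16 per degree of freedom). As this spread may be technical, it cannot tell whether the libraries are independent.

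Values per library are given for Tfeb, Tfe3, the 3 members of each class with the smallest adjusted p, and members called against their class; Psap and Lamp1 were added after their values were seen. Of other lists, the 4 genes with the smallest adjusted p were eligible; 1 of them is not reported here. The members, the lists and the tests were chosen with earlier results of these data known. Coordinates are those deposited; 98.3% of matched identifiers had the same position in GENCODE M21. Alternatives were other scalings, filters and tools (DESeq2 1.42.0, limma-voom 3.58.1), corrections for gene length and, chosen after seeing the data, for length and GC content (lowess offsets, span 0.3), a replicate block, and leaving out each library.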

Additional observations from a re-analysis of the deposited data

How the results depend on the processing

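The number of members called was 25 to 30 over the 17 alternatives, 21 to 24 higher and 4 to 7 lower, against 24 and 5. Scaling by total counts put the median of all genes at -0.13 and that of the members at 0.22; upper-quartile scaling gave 0.26, the gene length correction 0.38 and the length correction with a replicate block 0.39. Leaving out 1 library gave 25 to 28 members called (21 to 23 higher, 4 to 5 lower), a median of 0.31 to 0.37 and 8235 to 8841 genes called. Of 40 members, 22 kept direction and side of the threshold under every alternative. The sign turned for these log2 fold changes, and the cause was not tested. With the length correction, alone and with the block, Mcoln1 was -0.02 and -0.01, Man2b1 -0.04 and -0.04, Atp6v0d1 0.23 and 0.24, Atp6v1f 0.13 and 0.13, Tfe3 -0.19 and -0.19, and Atp6v1e1 0.03 and 0.03. With length and GC corrected, Atp6v0d1 was 0.31, Atp6v1f 0.22, Tfe3 -0.1, Atp6v1e1 0.03, Gusb 0.05 and Gaa 0.06. Atp6v1e1 was 0.01 with DESeq2's size factors, 0.01 with its Wald test and 0 among genes of at least 5 CPM, and Sgsh was -0.01 with total counts. Without 1 library Gusb was -0.05 to 0, Gaa -0.05 to 0, Atp6v1e1 -0.05 to 0.05 and Atp6v0d1 -0.16 to 0.01.

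Deviations of same-numbered female and male libraries from the mean of their sex correlated at -0.018, -0.104 and -0.153, which gave no sign of pairing by replicate number. With 3 libraries a sex, this cannot show whether same-numbered libraries shared a preparation. With the replicate number as a block, 8525 genes and 28 members were called (24 higher, 4 lower), against 8993 and 29, the loss being Atp6v1f (adjusted p = 0.0744). With 3 libraries a sex, small differences can be missed. The 83.6% of simulated 1.5-fold changes recovered came from simpler settings than these data and does not give the share missed here.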

Other observations

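Of 16 tested genes listed for autophagy, which feeds the lysosome, 3 were called higher in female cells, 5 lower and 8 not, with a median log2 fold change of 0.07. The list includes Gpnmb, described below, whose product is a lysosomal glycoprotein and which is 1 of the 3 called higher. The number called lower was 2 with the gene length correction, 3 with no filter or a replicate block, and 3 without female library 1, female library 2, male library 1 or male library 3. No difference from the members was tested. Gpnmb, a lysosomal and melanosomal glycoprotein that MiT/TFE factors control, had 1043, 1383 and 1086 CPM in female libraries, against 80.29, 84.56 and 77.23 CPM in male ones, a 14.5-fold rise (log2 3.86 ± 0.11, SE; adjusted p = 1.59e-14). Gabarapl1, which binds the autophagosome membrane, fell by 0.55 on the log2 scale, with 150.2 ± 7.35 CPM in female and 219.6 ± 5.41 CPM in male cells (SD, n = 3 each; adjusted p = 8.63e-06). Wipi1 and Wipi2, which read the lipid signal that starts an autophagosome, rose by 0.37 ± 0.08 (adjusted p = 0.000952) and 0.34 ± 0.08 (adjusted p = 0.0014), and the Wipi2 call was lost with the gene length correction.

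Among cathepsins, Ctsk, the collagen-cleaving protease, averaged 1057 ± 64.4 CPM in female and 78.43 ± 4.3 CPM in male cells, while Ctsh, an aminopeptidase, averaged 51.62 ± 2.11 CPM in female and 111.8 ± 7.23 CPM in male cells (SD, n = 3 each). The log2 fold changes were 3.75 ± 0.09 for Ctsk (SE; adjusted p = 2.07e-15) and -1.11 ± 0.08 for Ctsh (adjusted p = 6.06e-09). Ctsb averaged 3373 ± 209 CPM in female and 1827 ± 136 CPM in male cells.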
